A study of Mus musculus with 34 samples.

Results

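Of the 23737 rows in a table of transcript levels from mouse gastrocnemius muscle, 24 (0.101%) met a rule for being switched on by denervation. Their mean level lay under 2 TPM in innervated control muscle and at 10 TPM or more in denervated muscle of vehicle-treated wild-type mice. TPM is a level scaled for transcript length and library total, so that levels of different rows can be compared. Each row carries a gene symbol, but the symbols do not belong to the values, and no row is read here as the gene it is labelled with. Rows are therefore named by their position in the table, and no gene function or sequence is assigned to any of them.

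The study measured 34 libraries of polyadenylated RNA from female mice aged 6 months, in which the sciatic nerve of the left leg had been removed. The group WT_VEH_CON held 8 innervated contralateral legs of wild-type mice given vehicle, and WT_VEH_DEN held 7 denervated legs of wild-type mice given vehicle. WT_NVS-HD1_DEN held 10 denervated legs of wild-type mice that received NVS-HD1 by gavage, 10 mg/kg 2 times a day for 2 weeks from the day of surgery. The compound inhibits the class IIa histone deacetylases. iRKO_VEH_DEN held 9 denervated legs of vehicle-treated mice with an inducible whole-body knockout of HDAC4. In this model exon 5 of the gene is floxed and a Cre-ERT2 recombinase is expressed from the ROSA26 locus. Tamoxifen at 40 mg/kg was injected for 7 days at 4 months of age, and surgery followed 6 weeks after it. The protocol text does not say whether the wild-type mice also received tamoxifen. No control leg of NVS-HD1 or knockout mice was analysed here, so effects of either intervention on innervated muscle cannot be told apart from effects on the response to denervation. The labels do not say which legs came from the same mouse or whether each library of a group is a separate mouse. The spread behind each p-value is thus that between libraries, which may in part be technical. It is a single estimate per row over all 4 groups, so libraries outside a contrast also enter its p-value.

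Skeletal muscle that loses its nerve wastes and re-expresses genes that are otherwise silent in adult fibres, among them subunits of the fetal acetylcholine receptor, the muscle regulatory factor myogenin and embryonic myosins. HDAC4 is a class IIa histone deacetylase that accumulates in denervated fibres and represses repressors of myogenin, which in turn activates genes of the denervation response. Class IIa deacetylases act mainly through partners such as MEF2 transcription factors. None of this could be tied to the 24 rows. All 12 symbols of well-known denervation genes, Myog and Chrna1 among them, were in the table. Of the rows they labelled, 2 reached at least 2 times their control mean in WT_VEH_DEN, 3 were at 0 in all libraries and 0 were among the 24 rows. Likewise, 10 symbols of abundant muscle genes such as Ckm labelled rows with a control mean of at most 5.87 TPM, although 81 rows of the table reached 1000 TPM in control muscle. The labelled tissue and the knockout could therefore not be checked through marker genes. The row labelled Hdac4 stood at 17.2 ± 1.495 TPM (SD, n = 7) in WT_VEH_DEN and at 17.1 ± 1.38 TPM (SD, n = 9) in iRKO_VEH_DEN, which checks nothing for the same reason.

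The 24 rows were close to silent in control muscle. Their control means ran from 0.151 to 1.88 TPM with a median of 0.911 TPM, and the highest value of any of them in any control library was 3.055 TPM. In WT_VEH_DEN the means ran from 10.2 to 520.5 TPM with a median of 36.9 TPM. Of the 24 rows, 3 had a denervated mean of at least 100 TPM, 14 lay between 20 and 100 TPM and 7 between 10 and 20 TPM. The ratio of the denervated to the control mean was 6.55 at the lowest, 33.6 at the median and 349.9 at the highest. These values chose the rows and are given without a test. In whole muscle, more cells of a type and more RNA per cell cannot be told apart.

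**Figure D1:**
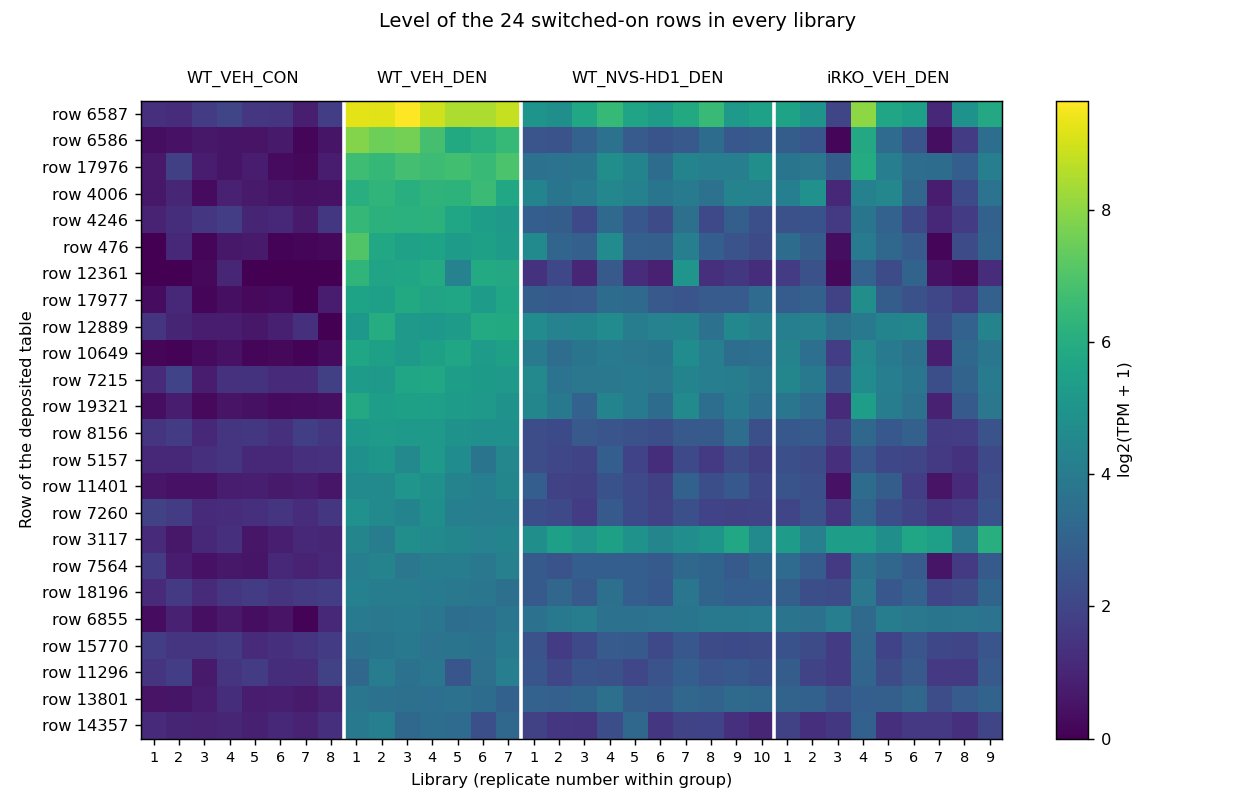
Level of each of the 24 rows (vertical axis, ordered by WT_VEH_DEN mean) in each of the 34 libraries (horizontal axis, replicate numbers within the 4 groups), as log2(TPM + 1) in colour. Control libraries are dark throughout, WT_VEH_DEN libraries are the brightest group in nearly all rows, and rows 3117 and 6855 lose no brightness under the interventions.

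Row 6587 was the most abundant of them in denervated muscle, where its mean ranked at position 219 of the whole table, against 11259 in control muscle. In the 8 control libraries it had a lowest, median and highest level of 0.774, 1.82 and 3.055 TPM. In WT_VEH_DEN these were 351.1, 501.5 and 803.6 TPM, in WT_NVS-HD1_DEN 26.6, 46.8 and 92.8 TPM, and in iRKO_VEH_DEN 1.15, 42.2 and 256.1 TPM. The vehicle-treated denervated libraries thus lay above all others, and the NVS-HD1 libraries lay between them and the controls without touching either. Among the knockout libraries, replicates 3 and 7, at 3.01 and 1.15 TPM, lay within the control range. The mean of the knockout group, 57.5 TPM, rested on replicate 4 at 256.1 TPM and was 32.6 TPM without it.

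Row 6586, directly before row 6587 in the table, followed it. Its control libraries ran from 0.089 to 0.619 TPM (median 0.437 TPM) and its WT_VEH_DEN libraries from 57.3 to 229.9 TPM (median 111.4 TPM). NVS-HD1 libraries held 4.49 to 11.6 TPM (median 5.56 TPM) and knockout libraries 0.086 to 56.4 TPM (median 5.01 TPM). Both intervention groups lay wholly below WT_VEH_DEN, and knockout replicates 3 and 7 again lay at control level. The same 3 denervated libraries, replicates 1 to 3, were highest in both rows. Row 6587 exceeded row 6586 by a median of 4.501 times in WT_VEH_DEN (2.63 to 6.14 times), by 7.80 times in WT_NVS-HD1_DEN (5.94 to 10.3 times) and by 6.16 times in iRKO_VEH_DEN (4.05 to 34.9 times), a range that spans the other 2 medians. The WT_VEH_DEN mean was 20.8 times the NVS-HD1 mean in row 6586 and 10.1 times in row 6587, a difference between the rows that was not tested. Without replicate 4 the knockout mean of row 6586 was 4.77 TPM in place of 10.5 TPM.

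A second pair of neighbours, rows 17976 and 17977, was also switched on, so that 2 pairs of the 24 rows adjoin in the table. Row 17976 had 84.9 to 119.7 TPM in WT_VEH_DEN (median 100.6 TPM), the second-lowest relative spread of all 24 rows, with a coefficient of variation (SD as a percentage of the mean) of 11.7%. It held 0.169 to 2.54 TPM in control libraries (median 0.627 TPM), 9.78 to 26.5 TPM in WT_NVS-HD1_DEN (median 16.5 TPM) and 6.24 to 61.1 TPM in iRKO_VEH_DEN (median 12.5 TPM). Every knockout library of this row lay above every control library and below every WT_VEH_DEN library. Row 17977 stood at 39.0 to 57.2 TPM in WT_VEH_DEN, at 4.87 to 9.56 TPM in WT_NVS-HD1_DEN and at 2.10 to 26.4 TPM in iRKO_VEH_DEN. Its knockout mean of 7.14 TPM fell to 4.73 TPM without replicate 4. The ratio of the pair had a median of 2.07 in WT_VEH_DEN, 2.49 in WT_NVS-HD1_DEN and 2.33 in iRKO_VEH_DEN. Within WT_NVS-HD1_DEN alone it ran from 1.79 to 4.04, which spans all 3 medians. Whether the neighbours in either pair are related transcripts cannot be read from the table.

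The spread among denervated libraries differed widely between rows. Over the 24 rows the coefficient of variation in WT_VEH_DEN had a median of 19.1%, against 11.8% over all 7345 rows whose mean in that group reached 10 TPM. It was lowest in row 15770, at 10.7% around a mean of 12.5 TPM. The highest values were 51.7% in row 6586 and 57.3% in row 476. Row 476 owed its spread to replicate 1, at 130.4 TPM, where the other 6 denervated libraries held 39.1 to 54.3 TPM.

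The effect of NVS-HD1 was examined by setting WT_NVS-HD1_DEN beside WT_VEH_DEN. Of the 24 rows, 22 were lower with NVS-HD1, 1 was higher and 1 was not called (limma on log2(TPM + 1), adjusted over 13108 rows tested, threshold 0.05). Over all rows tested, 21.2% were called lower and 18.5% higher. In 17 of the 24 rows every NVS-HD1 library lay below every WT_VEH_DEN library, where 7.05% of all rows tested did so, and in 0 rows every library lay above, where 4.74% did. The median log2 fold was -1.88 over the 24 rows and 0.025 over all rows tested. Since the rows were chosen for high values in these same WT_VEH_DEN libraries, the counts are a description and support nothing.

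Knockout of HDAC4 was examined in the same way, with the same WT_VEH_DEN libraries. Again 22 of the 24 rows were lower, 1 was higher and 1 was not called (limma, adjusted p threshold 0.05), where 25.9% of all rows tested were called lower and 15.3% higher. Every knockout library lay below every WT_VEH_DEN library in 17 rows, against 8.4% of all rows tested, and above in 0 rows, against 4.06%. The median log2 fold was -2.27 over the 24 rows and -0.034 over all rows tested. Both comparisons share the 7 libraries that chose the rows, so their likeness is not a result.

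How much of the denervation difference remained was expressed per row as a share, with the WT_VEH_CON mean at 0% and the WT_VEH_DEN mean at 100% in TPM. The median share over the 24 rows was 20.7% with NVS-HD1 and 16.3% in the knockout. On the log2(TPM + 1) scale of the fits these medians were 54.8% and 44.5%, so the shares below hold for the TPM scale. For comparison, 924 other rows had a denervated mean of at least 10 TPM that was at least 2 times the control mean, and their median shares were 42.1% and 34.5%. Shares under 20% were found in 11 of the 24 rows with NVS-HD1 and in 13 in the knockout, and in 12.3% and 19.4% of the 924 rows. No test was made of this contrast, because both sets of rows were chosen on the same libraries.

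**Figure D2:**
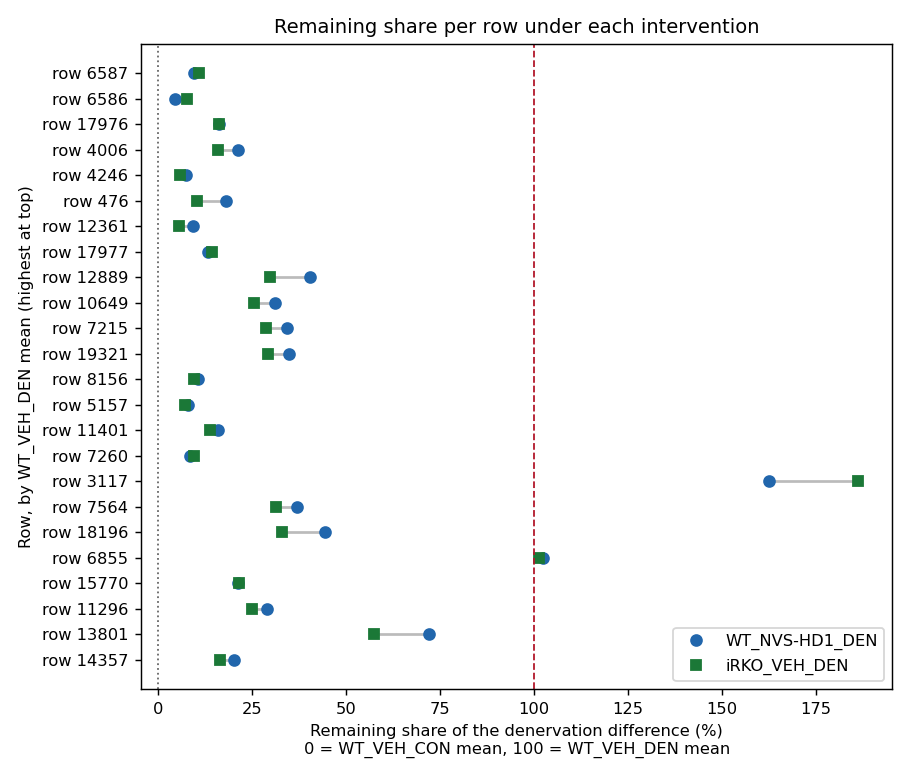
Share of the denervation difference that remained in each of the 24 rows (horizontal axis, percent of the difference between the WT_VEH_CON and WT_VEH_DEN means in TPM), for WT_NVS-HD1_DEN (circles) and iRKO_VEH_DEN (squares). Of the 24 rows, 21 lie under 50% in both groups, row 13801 lies at 72.0% and 57.5%, and rows 6855 and 3117 lie at or beyond 100%.

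The 24 rows fell into steps of remaining share. In 11 rows less than 20% remained under both interventions, and these held the rows with the lowest shares averaged over both, 6586, 4246, 12361 and 5157. Row 4246 held 35.7 to 85.5 TPM in WT_VEH_DEN (median 71.2 TPM), 3.39 to 10.8 TPM with NVS-HD1 (median 5.69 TPM) and 1.08 to 12.45 TPM in the knockout (median 4.28 TPM). Control libraries held 0.628 to 2.34 TPM, so that the NVS-HD1 libraries of this row lay wholly between control and WT_VEH_DEN. Its log2 fold against WT_VEH_DEN was -3.20 for NVS-HD1 (SE 0.27, limma adjusted p = 3.11e-11) and -3.55 for the knockout (SE 0.28, limma adjusted p = 5.51e-12). With the title number in the fit, a term described further on, the knockout value was -2.60 and no longer called (limma, adjusted p = 0.0532). Under that term every contrast of an intervention with WT_VEH_DEN rests on a single library. Row 5157 had 12.3 to 35.1 TPM in WT_VEH_DEN (median 24.7 TPM), 1.385 to 6.31 TPM in WT_NVS-HD1_DEN (median 3.04 TPM) and 1.55 to 5.10 TPM in iRKO_VEH_DEN (median 3.26 TPM). Both intervention groups lay wholly below WT_VEH_DEN and reached into the control range of 1.12 to 1.805 TPM.

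Row 12361 had the largest ratio of denervated to control level, 349.9, since it was listed at 0 in 6 of the 8 control libraries and held 0.163 and 1.04 TPM in the other 2. Without the library at 1.04 TPM, replicate 4, the control mean was 0.0233 TPM in place of 0.151 TPM and the ratio 2270. WT_VEH_DEN libraries held 18.4 to 79.5 TPM with a median of 55.25 TPM. With NVS-HD1, 9 of 10 libraries held 0.84 to 5.51 TPM, while replicate 7 held 31.9 TPM, inside the range of WT_VEH_DEN. The NVS-HD1 mean of 5.05 TPM became 2.06 TPM without that library. Knockout libraries held 0.148 to 7.52 TPM with a median of 2.20 TPM, all below WT_VEH_DEN.

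In another 8 rows between 20% and 50% of the difference remained under both interventions. Row 18196 was the highest of them, at 44.3% with NVS-HD1 and 32.9% in the knockout. It held 10.9 to 18.1 TPM in WT_VEH_DEN (median 14.6 TPM), 5.24 to 12.8 TPM in WT_NVS-HD1_DEN (median 6.44 TPM), 3.035 to 13.0 TPM in iRKO_VEH_DEN (median 5.17 TPM) and 1.21 to 2.355 TPM in control muscle. All libraries of both intervention groups thus lay above all controls, and their highest libraries reached into the WT_VEH_DEN range. Row 4006, the fourth most abundant in WT_VEH_DEN at 53.9 to 94.2 TPM, lay near the border, with 21.3% remaining with NVS-HD1 (11.2 to 20.9 TPM) and 15.8% in the knockout (0.663 to 28.1 TPM). Row 14357, with 20.2% and 16.5%, was the other row that fell on different sides of 20%.

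Row 13801 kept more than these. It held 6.97 to 13.0 TPM in WT_VEH_DEN (median 10.8 TPM), 5.71 to 10.9 TPM with NVS-HD1 (median 7.45 TPM) and 3.87 to 8.09 TPM in the knockout (median 6.59 TPM), against 0.431 to 1.38 TPM in controls. The denervated groups overlapped one another and all lay above control. Its log2 fold against WT_VEH_DEN was -0.39 for NVS-HD1 (SE 0.13, limma adjusted p = 0.0127) and -0.65 for the knockout (SE 0.13, limma adjusted p = 9.67e-05). Both calls were lost with the title number in the fit, where the log2 folds were 0.15 and -0.078 (limma, adjusted p = 0.778 and 0.899), the first with its sign turned. The NVS-HD1 call was also lost after rescaling without the 20 most abundant rows (log2 fold -0.28, limma adjusted p = 0.0716).

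Row 6855 was the 1 row called in neither comparison with WT_VEH_DEN. It held 0.056 to 1.15 TPM in control libraries (median 0.36 TPM), 10.2 to 15.1 TPM in WT_VEH_DEN (median 12.75 TPM), 11.2 to 15.4 TPM in WT_NVS-HD1_DEN (median 13.1 TPM) and 9.15 to 16.7 TPM in iRKO_VEH_DEN (median 12.3 TPM). The 3 denervated groups overlapped almost fully, with means of 12.7, 13.0 and 12.85 TPM. The log2 fold against WT_VEH_DEN was 0.033 for NVS-HD1, with a 95% interval of -0.20 to 0.27 (limma, adjusted p = 0.844). For the knockout it was 0.0097, with a 95% interval of -0.23 to 0.25 (limma, adjusted p = 0.959).

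Row 3117 was higher under both interventions than with vehicle. WT_VEH_DEN libraries held 16.2 to 26 TPM (median 19.9 TPM), NVS-HD1 libraries 20.2 to 53.85 TPM (median 30.3 TPM) and knockout libraries 13.6 to 66.4 TPM (median 40.7 TPM), while controls held 0.494 to 1.51 TPM. In each intervention group 7 libraries lay above the highest WT_VEH_DEN library, and the groups overlapped. The log2 fold was 0.60 for NVS-HD1 (SE 0.22, limma adjusted p = 0.0272) and 0.71 for the knockout (SE 0.22, limma adjusted p = 0.0104). The NVS-HD1 call was lost without WT_VEH_DEN replicate 2 (log2 fold 0.55, limma adjusted p = 0.0619) and without WT_NVS-HD1_DEN replicate 9 (0.52, limma adjusted p = 0.0564). With the number in the library titles as a term in the fit, described further on, neither call remained, at log2 folds of 1.03 and 1.34 (limma, adjusted p = 0.232 and 0.179).

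**Figure D3:**
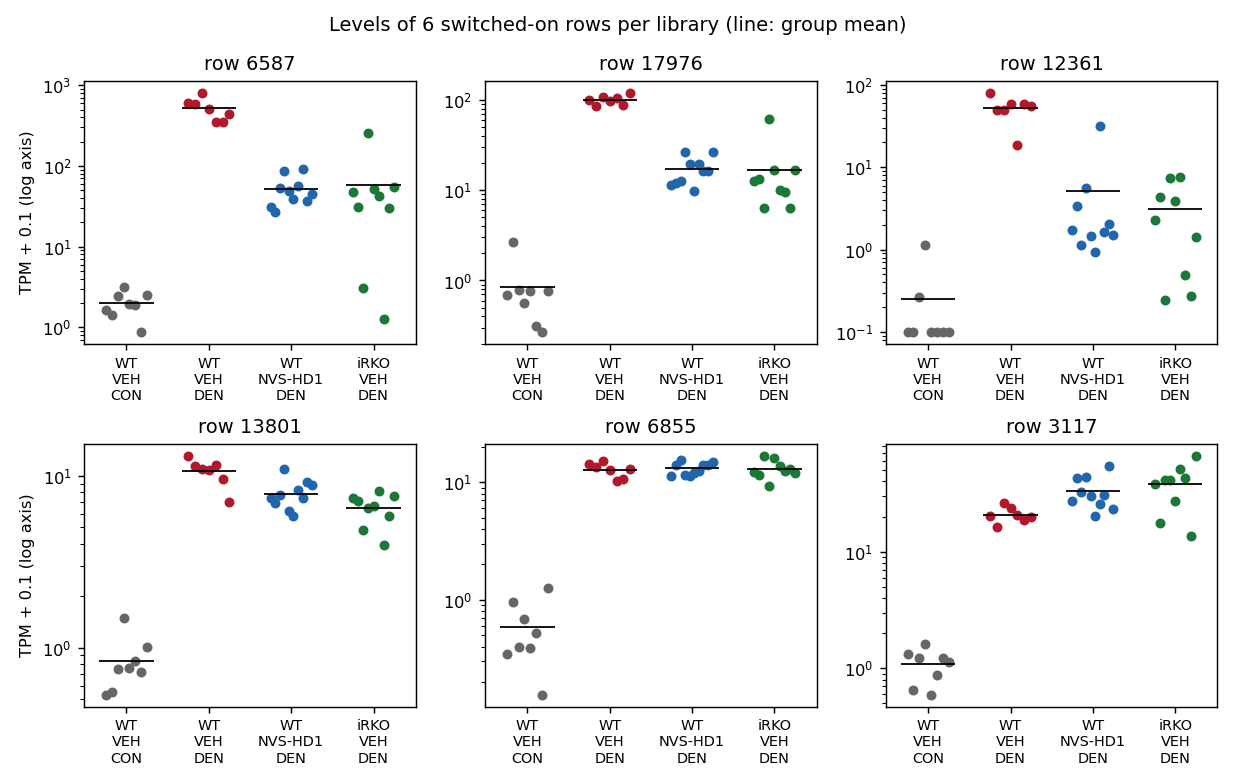
Levels of rows 6587, 17976, 12361, 13801, 6855 and 3117 (TPM + 0.1, log axis) in every library of the 4 groups, with each group mean as a line. Rows 6587, 17976 and 12361 drop under both interventions, row 13801 drops by less, row 6855 keeps means of 12.7 to 13.0 TPM in all denervated groups, and row 3117 lies highest under the interventions.

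The rows were also set against control muscle, with whose libraries they had been chosen as low. All 24 were called higher in WT_NVS-HD1_DEN than in WT_VEH_CON and all 24 in iRKO_VEH_DEN (limma, adjusted p threshold 0.05), where 41.9% and 34.3% of all rows tested were called higher, and 11% and 11.1% lower. Every NVS-HD1 library lay above every control library in 19 rows, against 15.2% of all rows tested, and below in 0 rows, against 2.7%. For the knockout the counts were 10 rows above, against 8.15%, and 0 below, against 2.27%. Over all rows tested the median log2 fold against control was 0.18 with NVS-HD1 and 0.12 in the knockout, and it was 0.0029 and 0.0007 after median-of-ratios scaling. The medians over the 24 rows were 2.35 and 2.07 as deposited and 2.24 and 2 after that scaling.

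NVS-HD1 and the knockout were then compared with each other, in the 1 contrast whose libraries took no part in choosing the rows. Of the 24 rows, 0 were called (limma, adjusted p threshold 0.05), where 0.061% of all rows tested were called higher and 0.0153% lower with NVS-HD1. At an unadjusted p under 0.05 there were 4 of the 24 rows, 476, 4006, 12889 and 13801, all higher with NVS-HD1, against 8.39% of all rows tested. This count rested on single knockout libraries: it was 15 without replicate 4, 8 without replicate 1, 7 without replicate 9, 1 without replicate 3 or replicate 8, and 0 without replicate 7. It was 2 without WT_NVS-HD1_DEN replicate 4. The share of all rows tested was not computed in these settings, so the shifts cannot be read as particular to the 24 rows. The largest difference was in row 4006, a log2 fold of 0.90 with a 95% interval of 0.18 to 1.61 (limma, adjusted p = 0.46). For rows 476, 12889 and 13801 the log2 folds were 0.84, 0.50 and 0.26, with lower ends of the interval at 0.043, 0.056 and 0.021. All intervals and p-values of this contrast assume equal spread in the groups. In rows 476, 4006, 12889 and 13801 the SD of log2(TPM + 1) was larger in the knockout than with NVS-HD1. Intervals from the spread of these groups alone were not computed, so whether they would exclude 0 is not known. For row 6587 the log2 fold was 0.77 and the interval, -0.25 to 1.79, was the widest of all 24. Rows 6855 and 3117 were measured more closely, with intervals of -0.20 to 0.24 and -0.52 to 0.31. Without knockout replicates 3, 7 and 8 the log2 fold was -0.025 in row 4006 and -0.31 in row 6587, and 0 of the 24 rows were called. The median log2 fold over the 24 rows was then -0.136, in place of 0.29. Over all rows tested it was -0.0215, in place of 0.0601. Replicates 3, 7 and 8 were the 3 lowest knockout libraries in 20 of the 24 rows, so leaving them out could only lower the fold in those rows. The shift is a description and supports nothing.

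The knockout libraries were less uniform than the others in these rows. The SD of log2(TPM + 1) was larger in the knockout than with NVS-HD1 in 21 of the 24 rows, and in 60.5% of all rows tested. Its median over the 24 rows was 0.84 in iRKO_VEH_DEN, 0.37 in WT_NVS-HD1_DEN, 0.27 in WT_VEH_DEN and 0.26 in WT_VEH_CON. Over all rows tested the medians lay between 0.20 and 0.24. The limma fits shared a single spread per row over the groups, so knockout contrasts do not show the knockout's own spread. Knockout libraries also entered contrasts without the knockout. Without replicates 3, 7 and 8 the median SE of the 24 rows for NVS-HD1 against WT_VEH_DEN was 0.174, in place of 0.249. The ratio of the highest to the lowest library had a median of 7.93 over the 24 rows in the knockout, 2.59 with NVS-HD1 and 1.79 in WT_VEH_DEN.

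Replicates 3, 7 and 8 made up the low end of this spread. They were the 3 lowest knockout libraries in 20 of the 24 rows, and in 32.2% of all rows tested. Of the 24 rows, 13, 13 and 17 exceeded the highest control library in replicates 3, 7 and 8, against 23 or 24 in each of the other 6. For these counts and the next, the share of all rows tested was not computed. The 24 rows were also chosen as low in these controls. In 9 rows, 6587, 6586 and 4246 among them, both replicate 3 and replicate 7 lay within or below the control range. Row 476, for instance, held 0.30 and 0.13 TPM there, against at most 1.18 TPM in controls, 3.62 TPM in replicate 8 and 5.80 to 14.2 TPM in the other 6 knockout libraries. Other rows were not at control level in the same libraries. Row 3117 held 40.7 TPM in replicate 3 and 43.1 TPM in replicate 7, above all WT_VEH_DEN libraries, and row 6855 held 16.7 and 12.3 TPM. Row 17976 held 6.24 and 9.58 TPM, above the highest control at 2.54 TPM. The 20 most abundant rows of the table took up 40.9% to 41.8% of TPM in these 3 libraries, against 32.4% to 35.9% in the other 6, and the part of this in the levels of the 24 rows was not tested.

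Replicate 4 made up the high end. It was the highest knockout library in 18 of the 24 rows, and in 20.7% of all rows tested. It was the lowest in row 6855, at 9.15 TPM. Row 19321 reached 40.3 TPM there, within the WT_VEH_DEN range of 29.5 to 55.9 TPM, and held 0.83 to 15.5 TPM in the other 8 knockout libraries.

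Summed over the 24 rows, control libraries held 19.3 to 29.4 TPM and WT_VEH_DEN libraries 1104 to 1792 TPM, or 0.11% to 0.179% of all TPM. NVS-HD1 libraries held 205.4 to 383.3 TPM, with a mean of 277.5 ± 54.1 TPM (SD, n = 10). Knockout libraries held 102.7 to 687.3 TPM, with a mean of 263.9 ± 176.5 TPM (SD, n = 9). Without replicates 3, 7 and 8 the knockout mean was 337.7 TPM, and without replicate 4 it was 210.9 TPM. These are the lowest sums and the highest sum of the group, so the direction of both shifts was fixed in advance. The groups WT_VEH_DEN and WT_VEH_CON overlapped with no other group in this sum, and the NVS-HD1 range lay inside that of the knockout. The number of the 24 rows at 10 TPM or more was 0 in each control library, 22 to 24 in WT_VEH_DEN, 7 to 13 with NVS-HD1 and 2 to 14 in the knockout.

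**Figure D4:**
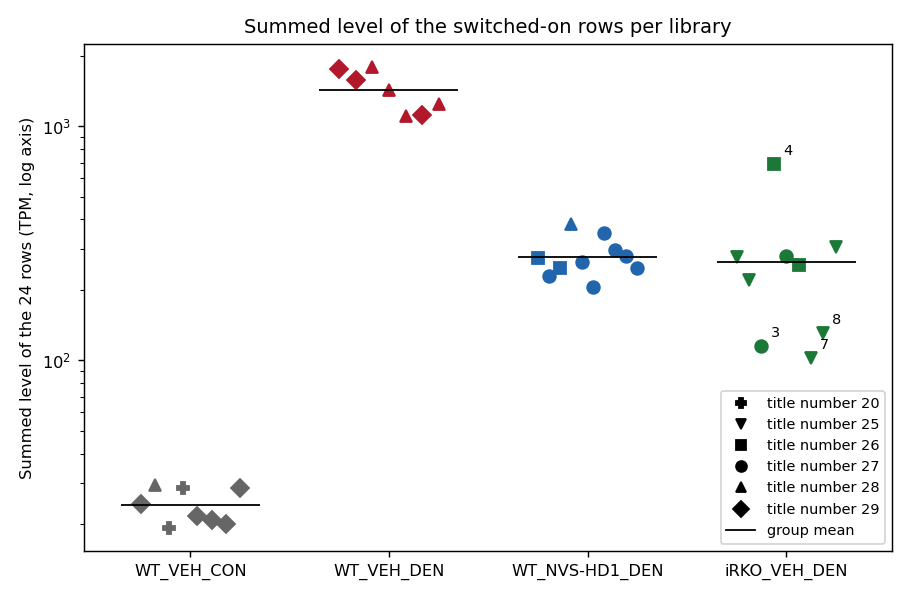
Sum of the 24 rows per library (TPM, log axis) by group, with the number in the library's title as the marker shape, group means as lines and knockout replicates 3, 4, 7 and 8 marked. Control libraries lie at 19.3 to 29.4 TPM, WT_VEH_DEN at 1104 to 1792 TPM, and both intervention groups between them.

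The code in each library's title contains a number from 20 to 29 that the labels do not explain, and it runs largely with the groups. A single NVS-HD1 library, replicate 4, has the number 28, as have 4 WT_VEH_DEN libraries. In 21 of the 24 rows it lay below all 4 of them, and its sum of 383.3 TPM was the highest of its group but below their 1104 to 1792 TPM. The share of all rows tested that did so was not computed. Because the rows were chosen as high in WT_VEH_DEN, this count is a description only. The control library of that number held 29.4 TPM. Among the knockout libraries 0 share a number with WT_VEH_DEN, so that this number and the knockout cannot be told apart within a number. NVS-HD1 and knockout libraries share the numbers 26 and 27. At 26 the sums were 247.9 and 273.3 TPM with NVS-HD1 and 254.7 and 687.3 TPM in the knockout, and at 27 they were 205.4 to 350.4 TPM in 7 libraries and 114.8 and 279.4 TPM in 2. With the number as a term in the fit, only NVS-HD1 replicate 4 linked the intervention groups to the vehicle groups. Every contrast of an intervention with WT_VEH_DEN or control then rested on this single library. Of the 24 rows, 6 were called against WT_VEH_DEN for NVS-HD1 and 2 for the knockout, all lower. Over all 13108 rows tested, 510 and 161 were called in either direction, in place of 5198 and 5398. The median log2 fold over the 24 rows was then -1.6 for NVS-HD1 and -1.86 for the knockout, in place of -1.88 and -2.27, and against control 2.79 and 2.7, in place of 2.35 and 2.07. Rows 5157 and 8156 were called for both, and row 8156 had a log2 fold of -2.54 for NVS-HD1 (SE 0.40, limma adjusted p = 0.00124) and -2.50 for the knockout (SE 0.46, limma adjusted p = 0.0115). Calls against control muscle numbered 20 for NVS-HD1 and 15 for the knockout under this term. Over all rows tested there were 3055 and 2313 such calls in either direction, in place of 6925 and 5950. The median SE over the 24 rows rose from 0.249 to 0.558 for NVS-HD1 against WT_VEH_DEN and from 0.254 to 0.642 for the knockout.

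Some rows lay close to the limits of the rule. At the control limit of 2 TPM, row 6587 lay nearest on the inside, with a control mean of 1.88 TPM. Row 18196 also lay inside with means of 1.87 TPM in control and 14.5 TPM in denervated muscle, and row 19274 outside with 2.07 and 19.1 TPM. Row 11439, just outside at 2.02 and 24.55 TPM, held a mean of 44.2 TPM with NVS-HD1 and 19.5 TPM in the knockout. Rows 13423 and 14046 also lay outside, at control means of 2.11 and 2.53 TPM and denervated means of 32.8 and 75.6 TPM. They held 14.9 and 9.08 TPM with NVS-HD1 and 11.5 and 7.04 TPM in the knockout. At the denervated limit of 10 TPM, row 14357 lay inside with means of 1.08 and 10.2 TPM, and row 15267 outside with 1.37 and 9.99 TPM. Rows 14357 and 15267 had means of 2.92 and 3.06 TPM with NVS-HD1 and of 2.58 and 2.66 TPM in the knockout.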

How the data were processed

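The authors deposited 1 table of TPM with 23737 rows and 34 libraries, and each library sums to 1000000. STAR 2.4.5a and the build mm10 are named in the submitters' processing notes, without their roles. How reads were counted, and with which annotation and filters, is not given in the sources used here. Read depth cannot be recovered from TPM, so counting error is unknown. Groups came from the library titles, and replicates were numbered in accession order.

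The rows, lists and tests were chosen with earlier results of these data known. The 13108 rows that reached 1 TPM in 7 or more libraries, all 24 switched-on rows among them, were fitted as log2(TPM + 1) with all 4 groups in limma 3.58.1 (R 4.3.3) with an empirical Bayes trend, two-sided, with Benjamini-Hochberg adjustment over all rows. Folds on this scale understate changes of low rows. Each row had a single estimate of spread, shared by the 4 groups. The fit was tested on simulated data with independent libraries and, within a row, equal spread in all groups. Unequal spread between groups and joint shifts of libraries were not simulated, so how the fit performs under them is not known. Descriptions used Python 3.11.15.

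Rows described one by one were those with the 6 highest WT_VEH_DEN means, the 4 lowest and 4 highest remaining shares, and the 2 lowest and 2 highest coefficients of variation, as well as rows next to the limits. The rule also asked for rows called between the interventions and rows at 0 in all control libraries, of which there were 0. Rows 8156, 12889, 17977 and 19321 were chosen after their values were seen.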

Additional observations from a re-analysis of the deposited data

Results flagged for a closer look

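In 60 combinations of group and measure, single libraries were checked for standing far from the rest of their group, and 7 did, where chance gives about 3. The sum of the 24 rows was 687.3 TPM in iRKO_VEH_DEN replicate 4, and the next library of the group held 305.1 TPM. The same library stood apart in row 17976, at 61.1 TPM. Row 12361 stood apart in 3 groups, each in a single library. These were WT_VEH_CON replicate 4 at 1.04 TPM, WT_VEH_DEN replicate 5 at 18.4 TPM and WT_NVS-HD1_DEN replicate 7 at 31.9 TPM. Row 476 stood apart in WT_VEH_DEN replicate 1, at 130.4 TPM, and row 17976 in WT_VEH_CON replicate 2, at 2.54 TPM. Single rows were checked as log2(TPM + 1).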

How the results depend on the processing

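No paired analysis was possible because the labels give the libraries no replicate numbers and do not tie the legs to mice. The number of switched-on rows was 14 with a control mean under 1 TPM as the limit, and 23 to 26 when single libraries were left out. It was 17 with a WT_VEH_DEN mean of at least 20 TPM as the limit and 20 after median-of-ratios scaling. Group medians in place of means gave 24 rows, 22 of them the same. When the title number entered the fit, calls against WT_VEH_DEN fell from 23 to 6 for NVS-HD1 and from 23 to 2 for the knockout. Calls against control fell from 24 to 15 for the knockout. Over all rows tested these calls fell from 5198 to 510, from 5398 to 161 and from 5950 to 2313. Under that term the contrasts with the vehicle groups rested on a single library, WT_NVS-HD1_DEN replicate 4. Median log2 folds of the 24 rows against WT_VEH_DEN were -1.6 and -1.86 under that term, with a larger SE. Leaving out single libraries moved the ratio of the denervated to the control mean by more than 1.5 times in rows 17976 (134.9 to 205.4) and 476 (166.2 to 254.2), both without WT_VEH_CON replicate 2, and in row 12361. Calls numbered 22 to 23, 23, and 23 to 24 in the same comparisons. Median remaining shares on the log2(TPM + 1) scale were 54.8% for NVS-HD1 and 44.5% for the knockout, in place of 20.7% and 16.3%.

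Between NVS-HD1 and the knockout, 0 of the 24 rows were called by limma under any alternative run, with 0 to 15 at an unadjusted p under 0.05. The share of all rows tested at that threshold was 8.39% in the main fit and was not computed for the alternatives. The p-values behind these counts assume equal spread in the groups. At a limma adjusted p under 0.05, 10 of all rows tested were called in the main fit. Without knockout replicates 3, 7 and 8 there were 3, and with the title number 0. With so few calls in the whole table, 0 of 24 cannot be read as particular to these rows. Signs were followed in rows named for their means, shares or coefficients of variation, and in all 24 with the title number. Without knockout replicates 3, 7 and 8 the log2 fold changed sign in rows 6587 (-0.31), 6586 (-0.61), 17976 (-0.11), 4006 (-0.025), 4246 (-0.095), 12361 (-0.42), 5157 (-0.21) and 15770 (-0.16). The median over the 24 rows was then -0.136, in place of 0.29. These libraries were the 3 lowest of the knockout in 20 of the 24 rows, so the direction of the shift was fixed there in advance. The sign changes without them are a description only. With the title number the log2 fold changed sign in rows 17976 (-0.011), 12361 (-0.30), 6855 (-0.098), 7260 (-0.124), 8156 (-0.040) and 14357 (-0.018). Quantile normalization turned rows 5157 (-0.017), 6855 (-0.035) and 15770 (-0.053). Median-of-ratios scaling turned rows 6855 (-0.039) and 15770 (-0.027), as did rescaling without the 20 most abundant rows (-0.018 and -0.012). Leaving out single libraries gave ranges across 0 in rows 6586 (-0.0031 to 0.71), 12361 (-0.12 to 0.42), 5157 (-0.052 to 0.13), 3117 (-0.26 to 0.011), 6855 (-0.030 to 0.070) and 15770 (-0.056 to 0.13). The cause of these changes was not tested.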
